A study of Mus musculus with 9 samples.

Results

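Of the FK506-binding protein (FKBP) family, 10 genes other than Fkbp5 and its nearest relative Fkbp4 were followed in the mouse medial prefrontal cortex: Fkbp1a, Fkbp1b, Fkbp2, Fkbp3, Fkbp7, Fkbp8, Fkbp9, Fkbp10, Fkbp14 and Fkbp15. They were picked out by gene symbol among the 24532 genes listed for each of 9 mice, with earlier results of these data known. All 10 were listed for every mouse and all 10 averaged at least 30 reads, the minimum that 14370 genes passed and the condition for testing. RNA was sequenced from 3 groups of 3 C57BL/6 mice (C57BL/6J in the methods), with 1 library per mouse. CT mice were wild type and not restrained, WT_ST mice were wild type and underwent daily restraint over several weeks, and KO_ST mice carried the knock-out genotype Fkbp5-/- and underwent the same restraint. By the study's methods all mice were male, and CT mice went without food and water as the restrained mice did. The sample labels give an age of 11 weeks. The methods give a younger one, without saying whether it holds before the weeks of restraint or at collection. No unstressed Fkbp5-/- group was analysed here, so the genotype was compared within stress only, and KO_ST and CT differed in both genotype and stress. The deletion is carried by every cell of the animal, and the tissue was not sorted, so fewer cells of a type and less RNA per cell cannot be told apart.

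FKBPs are prolyl isomerases: they speed the turning of the peptide bond before a proline, a slow step in protein folding. The family takes its name from the drug FK506. Its smallest member, FKBP12 (encoded by Fkbp1a), binds FK506 or rapamycin, and the complexes inhibit calcineurin or mTOR. Without a drug, FKBP12 and its close relative FKBP12.6 (Fkbp1b) bind ryanodine receptors, the calcium release channels of the endoplasmic reticulum (ER). Fkbp2, Fkbp7, Fkbp9, Fkbp10 and Fkbp14 encode proteins of the ER lumen, Fkbp3 a nuclear protein, Fkbp8 a protein anchored in the outer mitochondrial membrane, and Fkbp15 an actin-associated protein of endosomes and growth cones. Fkbp4 and Fkbp5, the Hsp90 co-chaperones of the glucocorticoid receptor, serve here as points of reference only.

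Depth ranged from 43778471 to 61150128 reads per mouse, and no pair of libraries was a duplicate. The labelled tissue was checked against 7 genes of the cortical layers, all of which passed the read minimum. They summed to 127.6 to 130.3 FPKM (the deposited measure, fragments scaled by transcript length and by mapped reads) in CT mice, 136.6 to 138.1 in WT_ST mice and 127.7 to 129.9 in KO_ST mice, so WT_ST stood above both other groups. Markers of other cells were counted as called at a limma p under 0.05 without adjustment and a fold change above 1.2. This rule called 2.47% of all tested genes between WT_ST and CT, 3.56% between KO_ST and CT and 2% between KO_ST and WT_ST. Of 6 microglial genes, 5 were called lower in WT_ST and 5 in KO_ST than in CT, and 1 in KO_ST than in WT_ST. None of the 6 had a limma adjusted p under 0.05. The list medians were log2 differences of -0.38 for WT_ST and -0.75 for KO_ST against CT, and -0.39 between KO_ST and WT_ST. Their summed level was 96.97 to 125.0 FPKM in CT mice, 78.48 to 84.78 in WT_ST mice and 43.24 to 87.9 in KO_ST mice. Of 6 striatal genes, 3 were called higher in WT_ST and 1 in KO_ST than in CT, and 2 lower in KO_ST than in WT_ST. Here too none had a limma adjusted p under 0.05. Medians were 0.39 for WT_ST and 0.08 for KO_ST against CT, and -0.28 between KO_ST and WT_ST. The striatal genes summed to 46.1 to 55.04 FPKM in CT, 55.63 to 68.87 in WT_ST and 46.58 to 56.7 in KO_ST. The part of either list in the differences described here was not tested. None of the 6 microglial or 6 striatal genes was at 0 in all mice.

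The targeted gene was read first. Fkbp5 stood at 7.61, 6.46 and 7.28 FPKM in the CT mice, at 9.83, 9.47 and 10.2 in WT_ST, and at 3.60, 4.69 and 4.45 in KO_ST. The 3 groups did not overlap, and KO_ST mice kept 625 to 907 Fkbp5 reads each, so the gene-level value is lower but does not by itself show the deletion. Fkbp5 rose in WT_ST over CT by a log2 fold change of 0.44 ± 0.0703 (SE; limma adjusted p = 0.267), a call without adjustment. On the log2(FPKM + 1) scale KO_ST was lower than WT_ST by a log2 fold change of -1.04 ± 0.0866 (SE; limma adjusted p = 0.00908). None of the 10 other FKBP genes lies on chromosome 17, which carries Fkbp5; they are spread over 7 chromosomes.

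Against this change in Fkbp5, none of the 10 genes was called in any comparison. A gene was called at a limma p under 0.05 without adjustment and a fold change above 1.2. The form of this criterion follows the study's methods. Between KO_ST and WT_ST, where a compensating rise would show, 0 of 10 were called, 0 had an unadjusted p under 0.05, and 6 estimates were above and 4 below zero. Of all tested genes, 2% were called by the same rule and 5.82% had an unadjusted p under 0.05. With edgeR on the read counts 1 of 10 was called (Fkbp14, lower in KO_ST), beside 2.96% of all tested genes, and with DESeq2 0, beside 2.85%. Between WT_ST and CT, 0 of 10 were called, beside 2.47% of all tested genes, and 0 by edgeR (3.72%) or DESeq2 (3.84%). Between KO_ST and CT, 0 of 10 were called, beside 3.56%, and again 0 by edgeR (4.63%) or DESeq2 (5.14%). In these 2 comparisons, too, 0 of 10 had an unadjusted limma p under 0.05, beside 7.86% and 9.46% of all tested genes. At background shares this low, 0 of 10 does not set the genes apart from others.

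The intervals say how large a change these mice could have hidden. For KO_ST against WT_ST, the upper 95% limit lay under 1.2-fold for 9 of the 10 genes and at 1.227-fold for Fkbp7, and 8 of 10 intervals stayed within 1.2-fold in both directions. The other two were those of Fkbp7 and Fkbp14. For WT_ST against CT, 7 of 10 stayed within it, and for KO_ST against CT also 7, with the highest upper limit again that of Fkbp7, at 1.363-fold and 1.488-fold. These folds are on the log2(FPKM + 1) scale, which understates changes of genes at a few FPKM, such as Fkbp7, Fkbp10 and Fkbp14. The median absolute log2 difference of the 10 genes was 0.04 between KO_ST and WT_ST, beside 0.05 over all tested genes. It was 0.06 beside 0.06 between WT_ST and CT, and 0.05 beside 0.07 between KO_ST and CT.

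**Figure D1:**
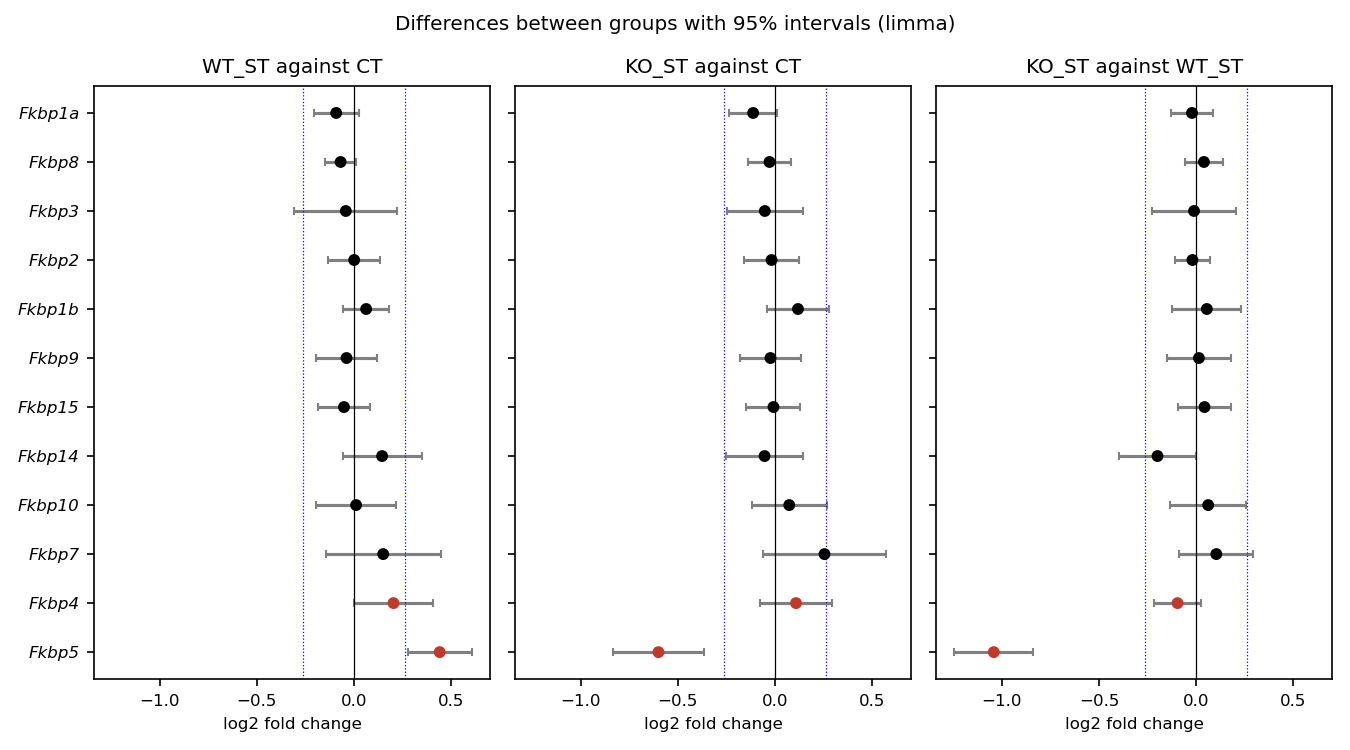
Log2 fold change on the log2(FPKM + 1) scale (horizontal axis) of each gene (vertical axis, ordered by mean level) in the 3 comparisons, as limma estimate (point) with its 95% interval (bar). Black points are the 10 genes, red points Fkbp4 and Fkbp5, and blue dotted lines mark a 1.2-fold change. All intervals of the 10 genes include zero, while those of Fkbp5 do not, with -1.04 for KO_ST against WT_ST.

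**Figure D2:**
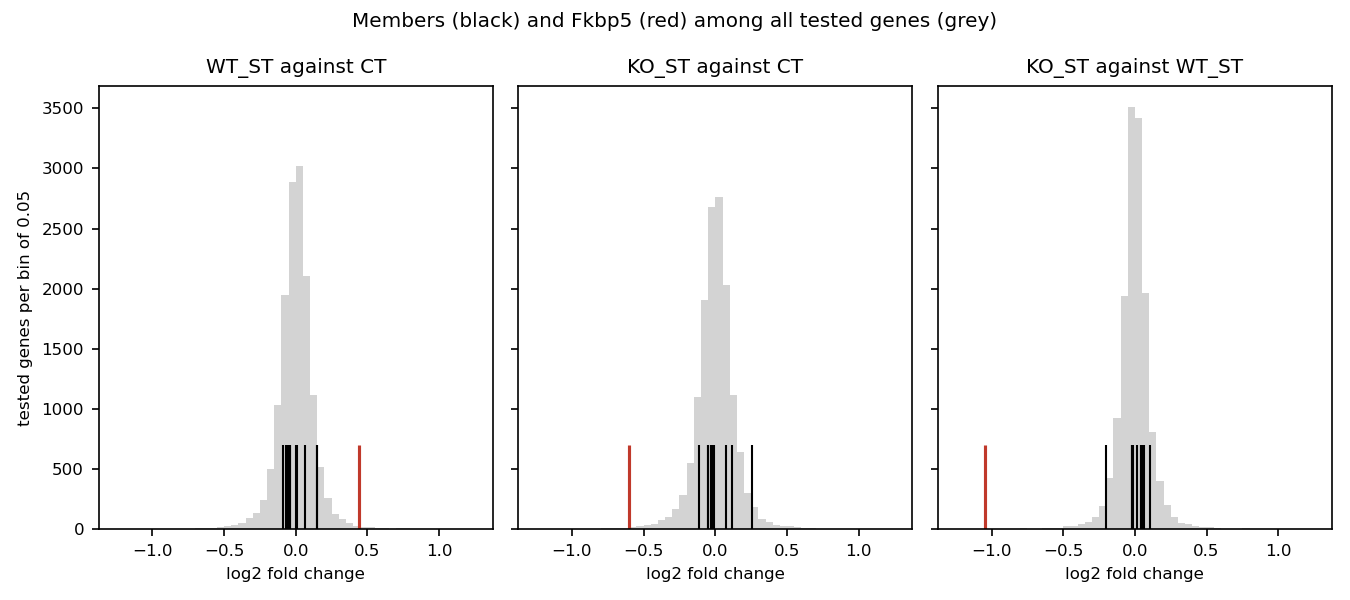
Number of tested genes (vertical axis, grey bars of width 0.05) at each log2 fold change (horizontal axis) in the 3 comparisons, with the 10 genes as black and Fkbp5 as red lines, whose height has no meaning. Between 14 and 17 genes per comparison lie beyond the counted range and are not drawn. Most black lines sit within the bulk of all genes, the red line at its edge or beyond. In absolute change, Fkbp7 exceeds 93.4% of tested genes for KO_ST against CT, and Fkbp14 93.0% for KO_ST against WT_ST.

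The 10 genes spanned a wide range of levels. Mean FPKM over the 9 mice was 250.4 for Fkbp1a, which ranked 173rd of the 14370 tested genes, and 200.8 for Fkbp8, at rank 247. Then came Fkbp3 at 90.2, Fkbp2 at 70.0, Fkbp1b at 36.7, Fkbp9 at 14.6 and Fkbp15 at 8.25 FPKM. The lowest were Fkbp14 at 2.48, Fkbp10 at 2.39 and Fkbp7 at 1.40 FPKM. In this order every gene stood above the next in 9 of 9 mice with no overlap of their ranges, except Fkbp14 and Fkbp10, where Fkbp14 was the higher in only 6 of 9. The 3 scarcest genes all encode ER proteins, and the other ER members, Fkbp2 and Fkbp9, ranked higher. Fkbp5 averaged 7.07 FPKM, between Fkbp15 and Fkbp14, and Fkbp4 45.9, between Fkbp2 and Fkbp1b.

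**Figure D3:**
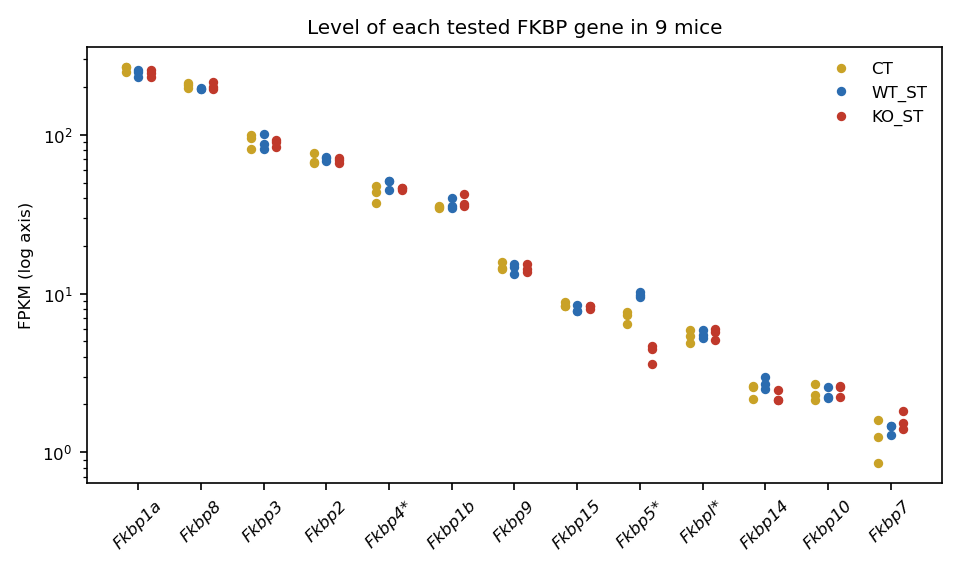
FPKM (vertical log axis) of each tested FKBP gene (horizontal axis, in order of the mean over all mice), with 1 point per mouse coloured by group. Genes marked with an asterisk are not among the 10. Fkbp1a and Fkbp8 lead with means of 250.4 and 200.8 FPKM, and only Fkbp14 and Fkbp10 overlap as neighbours among the 10.

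The promoters of 3 family members are shown to set the gene that was called beside genes that were not. Fkbp5 is the gene that was called in every comparison, Fkbp1a the most abundant of the 10, and Fkbp14 the one nearest the threshold between KO_ST and WT_ST. Each stretch runs from 250 bases before to 50 bases after a RefSeq transcription start on GRCm38.p6 and is written 5′ to 3′ along the gene. The Fkbp5 stretch is chr17:28486100-28486399 (minus strand), that of Fkbp1a chr2:151542233-151542532 (plus strand) and that of Fkbp14 chr6:54593125-54593424 (minus strand). Capitals mark matches, on either strand, to the box named for its letters CCAAT and to the GC box, GGGCGG.
Fkbp5 promoter: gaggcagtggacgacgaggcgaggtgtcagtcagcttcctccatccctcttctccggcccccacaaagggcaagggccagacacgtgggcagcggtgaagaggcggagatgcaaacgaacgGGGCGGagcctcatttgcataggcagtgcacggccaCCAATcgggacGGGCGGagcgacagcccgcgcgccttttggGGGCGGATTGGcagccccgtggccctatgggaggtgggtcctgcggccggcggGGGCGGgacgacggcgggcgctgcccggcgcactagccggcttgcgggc
Fkbp1a promoter: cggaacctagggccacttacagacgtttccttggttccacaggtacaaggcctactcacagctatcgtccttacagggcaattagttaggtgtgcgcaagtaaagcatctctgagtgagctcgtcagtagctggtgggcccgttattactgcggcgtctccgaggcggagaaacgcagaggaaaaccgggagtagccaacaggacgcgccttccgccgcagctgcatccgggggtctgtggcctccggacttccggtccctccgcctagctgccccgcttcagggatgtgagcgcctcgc
Fkbp14 promoter: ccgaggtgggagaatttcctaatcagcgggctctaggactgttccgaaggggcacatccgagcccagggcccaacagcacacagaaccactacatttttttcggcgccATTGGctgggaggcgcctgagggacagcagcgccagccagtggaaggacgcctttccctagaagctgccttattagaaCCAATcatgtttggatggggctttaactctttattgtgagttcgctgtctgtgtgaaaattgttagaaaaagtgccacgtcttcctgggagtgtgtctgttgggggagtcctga
The Fkbp5 stretch held 4 GC boxes and 2 CCAAT boxes, with 70.7% GC and 32 CpG. The Fkbp14 stretch held 2 CCAAT boxes, 1 on each strand, whose first bases lay at -142 and -64 from the start, with 53.3% GC and 11 CpG. The Fkbp1a stretch held neither, with 60.3% GC and 23 CpG, beside medians of 52.7% and 7 over 32817 RefSeq promoters.

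RefSeq windows were matched for 9 of the 10 genes, and Fkbp10 had none. Searched on both strands, CCAAT was found in 5 of 9 (Fkbp2, Fkbp7, Fkbp8, Fkbp14 and Fkbp15), beside 37.4% of all promoters. GGGCGG was found in 7 of 9 (Fkbp1b, Fkbp2, Fkbp3, Fkbp7, Fkbp8, Fkbp9 and Fkbp15), beside 35.6%. TATAAA, the TATA box, was found in 0 of 9, beside 13.6%. AGAACA, the half-site of the glucocorticoid receptor, was found in 0 of 9 and also not in Fkbp5, beside 19.0%. Its full palindrome, AGAACA and TGTTCT with 3 bases between them, was found in 0 of 9, beside 0.00914%, and the ER stress response element, CCAAT and CCACG with 9 bases between them, which contains a CCAAT box, in 0 of 9, beside 0.119%. A missing match says only that these letters are not in this window.

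Among the cytosolic members, Fkbp1a (chr2:151542483-151561691, plus strand, GRCm38.p6) was the drug target FKBP12. Its levels were 249.9, 266.3 and 267.9 FPKM in CT, 255.6, 231.4 and 249.6 in WT_ST, and 255.7, 232.3 and 244.4 in KO_ST, each from 18909 reads or more. The 3 groups overlapped, with the lowest mice of both stressed groups below CT. Against CT, the log2 difference was -0.09 ± 0.0491 in WT_ST (limma adjusted p = 0.679) and -0.11 ± 0.0524 in KO_ST (adjusted p = 0.546), and between KO_ST and WT_ST it was -0.02 ± 0.0458 (adjusted p = 0.972; fold interval 0.9145 to 1.06). The comparisons with CT share their CT mice. In a fit over all 9 mice the unadjusted limma p for KO_ST against CT was 0.0488, with the fold below 1.2. RefSeq lists 4 pseudogenes of Fkbp1a elsewhere in the genome, so its reads are uncertain by what such copies share.

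Fkbp1b (chr12:4833176-4841573, minus strand), whose product FKBP12.6 binds the cardiac ryanodine receptor, was measured at 35.4, 34.5 and 35.25 FPKM in CT. It stood at 39.7, 35.7 and 34.7 in WT_ST and at 35.7, 42.3 and 36.6 in KO_ST. All 3 KO_ST mice lay above all 3 CT mice, by little in replicate 1, while 5.9% of all tested genes were higher in KO_ST than in CT without overlap. The log2 difference was 0.12 ± 0.0682 (limma adjusted p = 0.608), and 0.06 ± 0.0753 against WT_ST (adjusted p = 0.956; fold interval 0.919 to 1.175). Without KO_ST replicate 2, the highest mouse, the difference from CT was 0.04. Fkbp1b amounted to 13.4% ± 0.658 (SD, n = 3) of the Fkbp1a level in CT, 14.96% ± 0.914 in WT_ST and 15.7% ± 2.21 in KO_ST. The mouse with the highest share, 18.19%, was in KO_ST, where the lowest was 13.97%, so KO_ST and WT_ST overlapped.

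Fkbp8 (chr8:70527721-70535328, plus strand) encodes FKBP38, which binds Bcl-2 at mitochondria and takes part in the removal of mitochondria by autophagy. It was measured at 196.3, 205.3 and 212.2 FPKM in CT, at 195.2, 195.3 and 196.5 in WT_ST, and at 198.6, 214.5 and 193.4 in KO_ST. The WT_ST mice lay close together (195.7 ± 0.721, SD, n = 3), with the highest just above the lowest CT mouse. Fkbp8 had the smallest unadjusted limma p of the 10 between WT_ST and CT, 0.0873, at a log2 difference of -0.07 ± 0.0347 (adjusted p = 0.673). Over the other settings that p ranged from 0.0261 (no moderation) and 0.0314 (no filter on low genes) to 0.262 (edgeR, TMM) and 0.293 (DESeq2), with the fold under 1.2 throughout. Between KO_ST and WT_ST the log2 difference was 0.04 ± 0.0422 (adjusted p = 0.953), and the fold interval ran from 0.960 to 1.10. Leaving out 1 mouse gave log2 differences from 0.00167, without KO_ST replicate 2, to 0.0680, without KO_ST replicate 3.

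Fkbp3 (chr12:65062432-65073938, minus strand), which encodes the nuclear FKBP25, stood at 99.96, 80.8 and 95.3 FPKM in CT, 80.8, 88.0 and 101.1 in WT_ST, and 92.4, 83.4 and 90.2 in KO_ST. The KO_ST values fell inside the range of WT_ST. The log2 difference between them was -0.01 ± 0.0927 (limma adjusted p = 0.991), with a fold interval of 0.8535 to 1.155. Fkbp15 (chr4:62300342-62360596, minus strand), the endosomal and actin-associated member, was at 8.31, 8.33 and 8.85 FPKM in CT, 7.81, 7.795 and 8.49 in WT_ST, and 7.93, 8.40 and 8.32 in KO_ST. Its groups overlapped throughout, and KO_ST against WT_ST gave 0.04 ± 0.0575 (adjusted p = 0.954; fold interval 0.938 to 1.13).

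**Figure D4:**
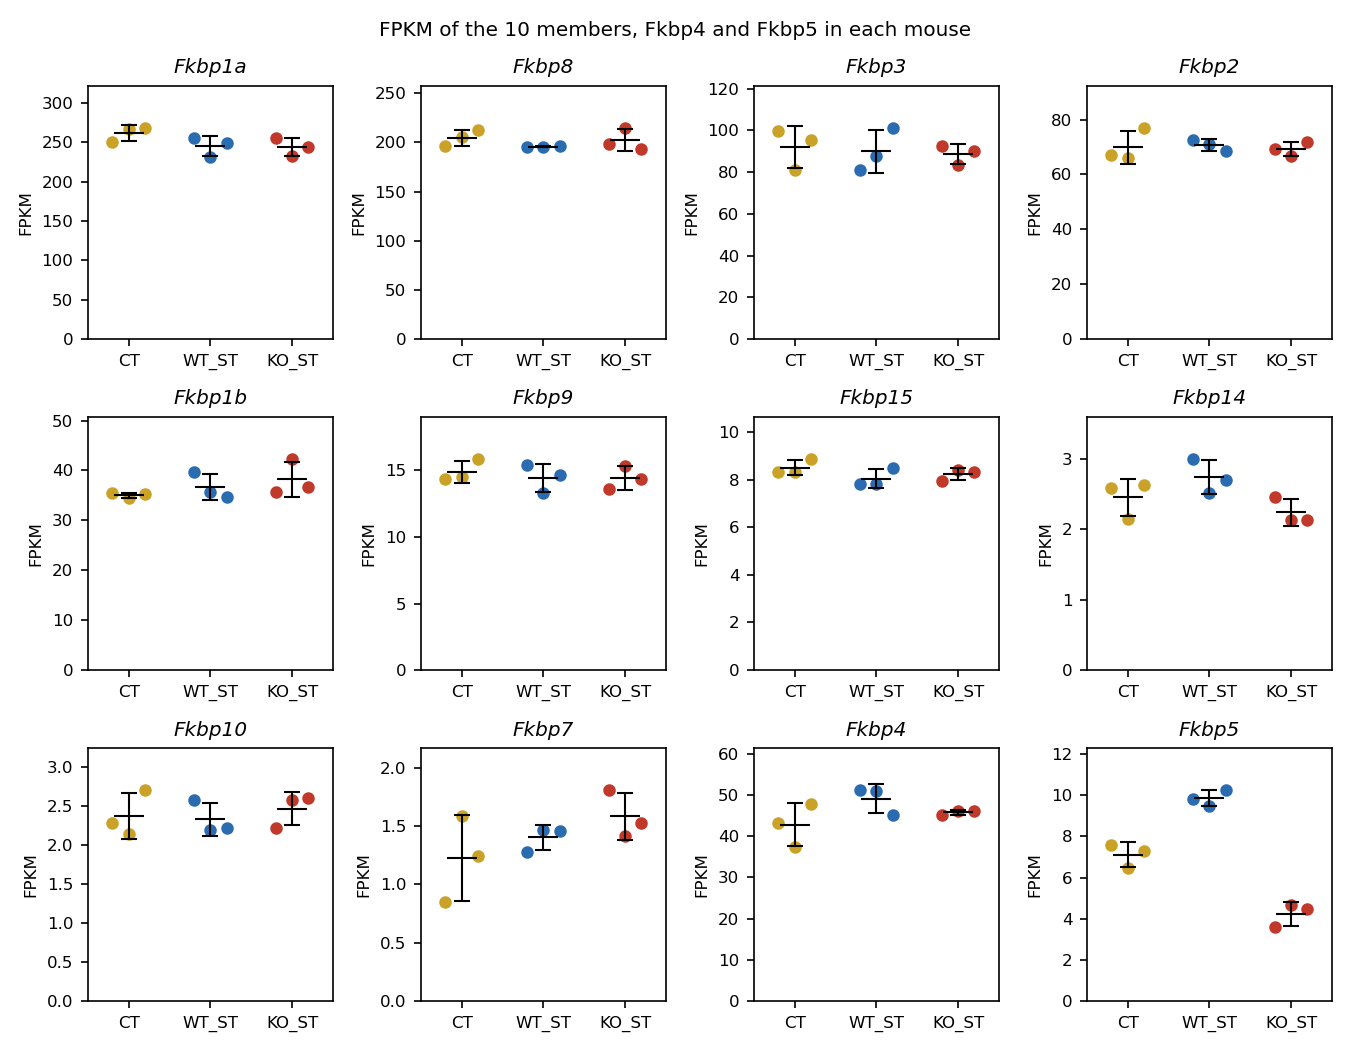
FPKM of each of the 10 genes and, for reference, of Fkbp4 and Fkbp5 (1 panel each, its own vertical axis) in the 9 mice (points) by group (horizontal axis), with bars for the mean ± SD of 3 mice. Among the 10, Fkbp1b separates KO_ST from CT, and Fkbp14 separates KO_ST from WT_ST, and the groups overlap in all other panels of the 10.

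Among the ER members, Fkbp14 (chr6:54577602-54597344, minus strand) showed the largest separation between the stressed groups. Its protein, FKBP22, acts on procollagen, and loss of the human gene causes a form of Ehlers-Danlos syndrome. Fkbp14 stood at 2.59, 2.15 and 2.63 FPKM in CT, 3.0, 2.52 and 2.71 in WT_ST, and 2.46, 2.135 and 2.14 in KO_ST, from 265 to 430 reads. Every KO_ST mouse was below every WT_ST mouse, and CT overlapped each of them, while 6.76% of all tested genes were lower in KO_ST than in WT_ST without overlap. The log2 difference was -0.20 ± 0.0849, with an unadjusted limma p of 0.0507 and an adjusted p of 0.852. It was thus not called, and its estimate was lower, not higher, in the KO_ST mice. By edgeR on the read counts the log2 difference was -0.28 with an unadjusted p of 0.0402 (adjusted 0.890), which meets the call, and by DESeq2 -0.27 with an unadjusted p of 0.0603. Between WT_ST and CT it was 0.14 ± 0.0864 (adjusted p = 0.702), a comparison that shares the WT_ST mice, and leaving out 1 mouse gave 0.0843 (without WT_ST replicate 1) and 0.0907 (without CT replicate 2) to 0.194. Of the exon bases of Fkbp14, 628 lie inside Plekha8 (chr6:54595111-54645823) on the other strand. By position they lie upstream of the Fkbp14 start used for the promoter above, outside the transcript that the deposited data name. Plekha8 gave -0.02 between KO_ST and WT_ST (limma adjusted p = 0.976).

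Fkbp7 (chr2:76663034-76673098, minus strand), whose ER protein binds the chaperone BiP, was the scarcest and most variable of the 10, with 48 to 78 reads per mouse. It stood at 0.850, 1.59 and 1.24 FPKM in CT, 1.28, 1.47 and 1.46 in WT_ST, and 1.81, 1.41 and 1.53 in KO_ST. The CT range covered all WT_ST mice and 2 of the 3 KO_ST mice. KO_ST against CT gave the largest estimate among the 10 genes, 0.25 ± 0.135 (limma adjusted p = 0.581), and KO_ST against WT_ST 0.10 ± 0.0814 (adjusted p = 0.940). The values depended on single mice. Without KO_ST replicate 1, the highest of its group, the difference from WT_ST was 0.03. Without CT replicate 1, the lowest, the estimate was 0.02 for WT_ST and 0.13 for KO_ST against CT. Without CT replicate 2, the highest, Fkbp7 was called higher than CT both in WT_ST, at 0.28 (limma adjusted p = 0.915), and in KO_ST, at 0.38 (limma adjusted p = 0.789). On the read counts the difference between KO_ST and CT was 0.39, with an unadjusted edgeR p of 0.196. Between KO_ST and WT_ST it was 0.18, with an unadjusted edgeR p of 0.392.

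The other ER members did not separate the groups. Fkbp2 (chr19:6977737-6980464, minus strand), which encodes FKBP13, was at 67.0, 66.1 and 76.9 FPKM in CT, 72.65, 71.05 and 68.6 in WT_ST, and 69.3, 66.6 and 71.8 in KO_ST. Fkbp9 (chr6:56832059-56879360, plus strand), with several isomerase domains, was at 14.3, 14.5 and 15.85 FPKM in CT, 15.4, 13.3 and 14.6 in WT_ST, and 13.6, 15.3 and 14.4 in KO_ST. Both genes overlapped in all 3 pairs of groups. Fkbp10 (chr11:100415694-100424840, plus strand), which encodes the collagen chaperone FKBP65, was at 2.28, 2.14 and 2.70 FPKM in CT, 2.58, 2.19 and 2.22 in WT_ST, and 2.22, 2.57 and 2.60 in KO_ST. Between KO_ST and WT_ST the log2 differences were -0.02 ± 0.0376 for Fkbp2, 0.01 ± 0.0703 for Fkbp9 and 0.06 ± 0.0829 for Fkbp10, with limma adjusted p between 0.954 and 0.986. The exons of Fkbp10, Fkbp3 and Fkbp8 also overlap a gene on the other strand, and none of those genes was called in any comparison.

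Summed over the 10 genes, the family held 676.9, 681.7 and 718.9 FPKM in CT, 674.1, 648.9 and 680.1 in WT_ST, and 679.8, 668.8 and 665.2 in KO_ST. The sums of KO_ST lay within the range of WT_ST. Fkbp1a and Fkbp8 made up 65.6% to 69.18% of the sum in every mouse. Fkbp5 equalled 1.03% ± 0.0895 (SD, n = 3) of it in CT, 1.48% in WT_ST and 0.633% in KO_ST. The 5 ER members summed to between 86.46 and 99.31 FPKM, and the group means were 90.9 (CT), 91.7 (WT_ST) and 89.9 (KO_ST).

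The 3 genes of lowest level varied most between mice, and the other genes did not follow their level. The coefficient of variation over all 9 mice was 3.93% for Fkbp8, 4.202% for Fkbp15, 4.98% for Fkbp2, 5.17% for Fkbp1a and 5.70% for Fkbp9. It was 7.11% for Fkbp1b and 8.52% for Fkbp3, and it reached 9.16% for Fkbp10, 11.9% for Fkbp14 and 19.0% for Fkbp7. Counting error alone would give 12.5% for Fkbp7 and 5.48% for Fkbp14. Fkbp5 varied by 34.9%. Within groups, the median coefficient of variation of the 10 genes was 6.67%, beside 8.04% over all tested genes and 5.88% over the 9004 tested genes of at least 5 FPKM.

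Over the 9 mice, the genes were little correlated among themselves. Of 45 pairs, 24 had a positive Pearson r, 3 had an unadjusted exact permutation p under 0.05 and 0 an adjusted one, the smallest being 0.567. The most negative pair was Fkbp1a and Fkbp1b, at r = -0.62 (two-sided exact permutation p = 0.0888, adjusted 0.799) and Spearman rho = -0.90 (p = 0.00211, adjusted 0.0947, exact permutation). Without the 2 mice farthest from the median of Fkbp1a, which narrows the range of that gene, r was -0.16, and over all 9 mice with the group means removed it was -0.43. The highest pair was Fkbp9 and Fkbp10, at r = 0.74 (exact permutation p = 0.0354, adjusted 0.567) and rho = 0.49 (p = 0.187), and r was 0.64 without 2 mice. Outside the family, the tested gene most like a member over the 9 mice, by Pearson r, was Kctd4 for Fkbp1a (0.964), Tmem63b for Fkbp1b (0.96), Sppl2a for Fkbp3 (0.969) and Il3ra for Fkbp8 (0.939). Among the ER members it was Mx2 for Fkbp2 (0.956), Pfkfb1 for Fkbp7 (0.938), Rbm38 for Fkbp9 (0.922), Golga1 for Fkbp10 (0.954) and Rbm41 for Fkbp14 (0.941). Each is the highest of 14357 genes and a description of these mice only.

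Of the other prolyl isomerases, cyclophilins and parvulins, 19 were tested. By limma 0 were called between WT_ST and CT, 1 between KO_ST and CT and 1 between KO_ST and WT_ST, beside 2.47%, 3.56% and 2% of all tested genes, and the medians of the list in the 3 comparisons lay between -0.00 and 0.03. The 1 gene called between KO_ST and CT, and again between KO_ST and WT_ST, was Ppil1, a spliceosomal cyclophilin. Ppil1 stood at 12.5, 12.2 and 12.8 FPKM in CT, 13.6, 12.8 and 13.4 in WT_ST, and 9.16, 10.9 and 7.85 in KO_ST. All KO_ST mice lay below all others, with log2 differences of -0.37 ± 0.108 from CT (limma adjusted p = 0.489) and -0.47 ± 0.107 from WT_ST (adjusted p = 0.586). Ppil1 lies at chr17:29250835-29263971 on the chromosome of Fkbp5, and its start is 0.852 Mb from that of Fkbp5 (chr17:28398753-28486149). Of 5 further FKBP genes outside the 10, 3 were tested (Fkbp4, Fkbp5 and Fkbpl), and Fkbp5 alone was called. Fkbp4 gave 0.20 ± 0.0855 between WT_ST and CT (adjusted p = 0.635), below 1.2-fold.

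Partners and clients of the 10 proteins were described by list. Of 19 tested partners of FKBP12 and FKBP12.6 (calcium release channels, calcineurin, mTOR and TGF-beta receptor genes), only Ppp3cb, a catalytic subunit of calcineurin, was called. The call was between KO_ST and WT_ST, at -0.46 ± 0.187 (limma adjusted p = 0.847), beside 2% of all tested genes. The medians of this list lay between -0.05 and 0.01. Ppp3cb levels were 83.0, 73.5 and 40.5 FPKM in CT, 50.6, 82.2 and 83.3 in WT_ST and 47.1, 54.1 and 50.9 in KO_ST. In CT and in WT_ST, 1 mouse stood well below the other two, and KO_ST overlapped both groups. Of 13 partners of FKBP38 and 16 genes of collagen folding in the ER, none was called in any comparison by limma, and the medians of both lists lay between -0.04 and 0.01. Of 14 ER chaperones, only Canx (calnexin) was called, higher in WT_ST than in CT at 0.48 ± 0.106 (limma adjusted p = 0.542). Of all tested genes, 2.47% were called there. The chaperones summed to 625.7 to 680.1 FPKM in CT, 688.1 to 745.9 in WT_ST and 631.5 to 656.9 in KO_ST, with median log2 differences of 0.10 between WT_ST and CT and -0.14 between KO_ST and WT_ST, beside medians of 0.00 over all tested genes. The sum of the 5 ER FKBP genes, of which Fkbp2 makes up most, did not separate WT_ST. Of 11 collagen genes, 4 were called lower and none higher in KO_ST than in CT. In either direction, 3.56% of all tested genes were called there. The 4 included Col5a1 (-0.36, limma adjusted p = 0.499), Col1a2 (-0.34, adjusted p = 0.499) and Col6a2 (-0.34, adjusted p = 0.501). Col6a2 was also lower in KO_ST than in WT_ST, at -0.30 (adjusted p = 0.586). The median over the 11 was -0.14 between WT_ST and CT, -0.21 between KO_ST and CT and -0.06 between KO_ST and WT_ST. Of 5 endothelial markers, 1 was called lower in KO_ST than in CT, and the median was -0.23. Their sums overlapped, at 50.04 to 59.04 FPKM in KO_ST and 55.99 to 59.97 in CT. Fibroblast and leptomeningeal markers, 12 genes, had a median of 0.24 in that comparison. The part of either list in the collagen values was not tested.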

How the data were processed

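Medial prefrontal cortex RNA of 9 mice (3 per group, grouped by the sample labels) was sequenced from stranded mRNA libraries. Read counts and FPKM per gene were deposited by the authors. The submitters' processing notes name HISAT2 2.1.0, Bowtie2 2.3.4.1 and StringTie 1.3.4d with mm10. Whether counting used strand is not given in the sources used here. FPKM, scaled by the authors for length and mapped reads, were taken here as log2(FPKM + 1) and quantile normalized over the mice. Differences were fitted for the 14370 genes averaging at least 30 reads with limma 3.58.1 (R 4.3.3, moderated with a trend), using the mice of 2 groups only, with Benjamini-Hochberg adjustment over all tested genes. Alternatives used the read counts (edgeR 4.0.16 with TMM or RLE scaling, DESeq2 1.42.0), a pseudocount of 0.1, no quantile normalization, no filter, a mean FPKM of at least 1, no moderation, 1 fit over 9 mice, the replicate number as a block, and leaving out each mouse.

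Whether equal replicate numbers mark mice that belong together was checked, and the check is given with the alternatives. The methods were tested on simulated data. Each mouse gave 1 library, so the spread behind the p-values holds mouse, dissection and library together. In limma this spread is moderated over the tested genes. Genes named are the 10, Fkbp5 and Fkbp4, the up to 3 genes of each list with the largest change among those called, and the gene most like each of the 10, of which that for Fkbp15 is not reported here. Plekha8 was named for its overlap with Fkbp14. The 10 genes and all lists were chosen with earlier results of these data known. Positions and promoters come from RefSeq (GRCm38.p6), where all 10 genes were matched by gene ID, and promoter windows were those nearest the starts of the transcripts that the deposited data name. Protein sequences were not used here. Cell-type marker lists were summed in FPKM per mouse and counted by their calls.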

Additional observations from a re-analysis of the deposited data

How the results depend on the processing

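Of 300 log2 differences of the 10 genes recomputed under other settings than leaving out a mouse, 284 kept their direction and their side of the call, 14 turned in direction and 2 passed the call. Another filter, no moderation, 1 fit over 9 mice and the replicate block left the difference itself as it was and could not turn it, so the 14 come from the settings without quantile normalization, edgeR and DESeq2. The 2 were Fkbp14 between KO_ST and WT_ST with edgeR, which raised the members called there from 0 to 1 under TMM and under RLE scaling (-0.28 and -0.27). The 14 were all within 0.03 of zero, where the direction is not resolved. Fkbp10 between WT_ST and CT gave -0.02 without quantile normalization (-0.0171), by edgeR with TMM (-0.0164) and RLE (-0.0165) and by DESeq2 (-0.0158). Between KO_ST and CT, edgeR with TMM, with RLE and DESeq2 gave 0.00682, 0.00552 and 0.00588 for Fkbp2 and 0.00943, 0.00830 and 0.00831 for Fkbp8. Between KO_ST and WT_ST they gave 0.00181, 0.00578 and 0.00578 for Fkbp1a, and Fkbp9 gave -0.00245 without quantile normalization. The cause was not tested.

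Leaving out each mouse gave 0 to 1 members called between WT_ST and CT and between KO_ST and CT (Fkbp7, without CT replicate 2) and 0 between KO_ST and WT_ST. It turned 25 of 180 differences. Between WT_ST and CT the ranges were -0.0347 to 0.0607 for Fkbp2, -0.144 to 0.0475 for Fkbp3, -0.0798 to 0.0139 for Fkbp9 and -0.0543 to 0.0666 for Fkbp10. Between KO_ST and CT they were -0.0535 to 0.0418 for Fkbp2, -0.140 to 0.0169 for Fkbp3, -0.0700 to 0.0208 for Fkbp9 and -0.0298 to 0.0190 for Fkbp15. Between KO_ST and WT_ST they were -0.0561 to 0.0121 for Fkbp1a, -0.0196 to 0.105 for Fkbp1b, -0.0440 to 0.00106 for Fkbp2, -0.0999683 to 0.0911 for Fkbp3 and -0.0373 to 0.0588 for Fkbp9. Fkbp14 stayed between -0.252 and -0.138 there.

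Mice with the same replicate number deviated from their group means with a mean correlation of -0.0101 (9 pairs, -0.259 to 0.234, 2 over 0.1). Different numbers gave 0.00494 (18 pairs, -0.266 to 0.19, 6 over 0.1). No pairing by number showed, but so few pairs, which share mice, cannot settle whether there was one. With the replicate block, 0 members were called in each comparison, and Fkbp14 between KO_ST and WT_ST kept -0.20 at an unadjusted limma p of 0.0383 (adjusted 0.981). Over all genes, the limma calls of 355, 512 and 287 (WT_ST against CT, KO_ST against CT, KO_ST against WT_ST) became 535, 665 and 426 with edgeR and 552, 738 and 410 with DESeq2, and 164, 248 and 138 without moderation. The split by direction moved too: of the calls against CT, 166 (WT_ST) and 221 (KO_ST) were higher by limma, 126 of 369 and 148 of 519 without quantile normalization, and 177 of 535 and 250 of 665 with edgeR. Leaving out a mouse moved all-gene calls to 277 to 542, 410 to 734 and 245 to 477 in the same order. Without CT replicate 3, 542 genes were called in WT_ST (322 higher) and 633 in KO_ST (340 higher) against CT, and without KO_ST replicate 3, 477 between KO_ST and WT_ST. Depth limits Fkbp7 most, at 48 to 78 reads per mouse.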

Other observations

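Markers of other cell types were counted with the same call, and their part in the values of the FKBP genes was not tested. Of all tested genes, 2.47% were called between WT_ST and CT, 3.56% between KO_ST and CT and 2% between KO_ST and WT_ST. Of 8 neuronal genes none was called by limma in any comparison, but their sum was 2463 to 2877 FPKM in CT, 2967 to 3217 in WT_ST and 3032 to 3175 in KO_ST, so both stressed groups lay above CT, with medians of 0.14 and 0.18 against it. Of the 7 cortical layer genes, 1 was higher in WT_ST and 1 in KO_ST than in CT. Of 6 astrocyte genes, 2 were lower in WT_ST than in CT. Of 5 endothelial genes, 1 was lower in WT_ST and 1 in KO_ST than in CT. Of 3 oligodendrocyte precursor genes, 1 was lower in KO_ST than in CT. Of 12 fibroblast and leptomeningeal genes, 1 was lower in KO_ST than in CT (Col1a2, also among the collagen genes), while the median of the list was 0.24. No call was made among 6 oligodendrocyte genes, 6 pericyte and smooth muscle genes and 4 tested erythrocyte genes. The erythrocyte list, of 5 genes, ranged from 82.76 to 774.9 FPKM between mice within CT alone. Of 5 choroid plexus genes, 1 was tested and not called, and the list summed to 0.490 to 1.137 FPKM in every mouse.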
